A study of Mus musculus with 8 samples.

Results

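The Bcl2 family, 10 genes that set the threshold for death through the mitochondria, was followed in mouse oocytes grown entirely in culture from embryonic stem cells (ESCs). The members were chosen by symbol, with earlier results of these data known. Bcl2l1, Mcl1 and Bcl2 encode proteins that hold death back, and Bcl2l10 is grouped with them here. Bax and Bak1 encode proteins that open the outer mitochondrial membrane, and Bcl2l11, Bid, Pmaip1 and Bbc3 are the BH3-only genes that start the process. The members are 10 of the 55385 genes in the count table. Of the 14929 genes with enough reads to be tested, 8 were members; Bak1, with 30 reads over all libraries, and Bbc3, with 35, were not tested.

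The study compared 2 ESC lines at 2 stages. The sex-converted line is an XX line made from male cells, the native line is an ordinary XX line, and the labels give the strain of both as C57BL/6 x 129/SvJ. In the sample descriptions the name of the sex-converted line contains DsRed and XO, and that of the native line does not. Both lines carry Blimp1-mVenus and Stella-ECFP reporter transgenes. Both were turned into primordial germ cell-like cells and aggregated with female gonadal somatic cells of embryonic day 12.5, and the follicles that formed were grown in vitro. Germinal vesicle (GV) oocytes, arrested in the first meiotic prophase, were taken at day 11 of follicle growth in the presence of dibutyryl-cAMP and IBMX, which hold that arrest. Metaphase II (MII) oocytes, ready for fertilisation, were taken after a further 16 h of maturation with FSH, EGF and hCG and were recognised by the first polar body. In all 4 groups the cumulus cells were stripped and oocytes positive for the Stella-ECFP reporter were picked. The stages thus differ also in the agents present, the extra culture and the size of the pools. Each group has 2 libraries, described as biological duplicates, each a pool of 31 to 158 (GV) or 35 to 58 (MII) oocytes. Each kind of ESC is represented by 1 line, so a difference between lines cannot be told apart from a difference between kinds of line, and each p-value measures only the spread between these pools.

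BCL2 proteins work by binding one another. The anti-apoptotic members hold BAX, BAK and the BH3-only activators in check; when BH3-only proteins outnumber them, BAX and BAK form pores, cytochrome c leaves the mitochondria and caspases are activated. Oocytes depend on this balance: loss of MCL1 depletes the ovarian reserve, PUMA (Bbc3) and NOXA (Pmaip1) carry out oocyte death after DNA damage, and BCL2L10 is a member found chiefly in the oocyte and early embryo.

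Fully grown oocytes make little new RNA. They store mRNAs with short tails, and during maturation a cytoplasmic polyadenylation element (CPE) near the 3' end, close to the AATAAA hexamer, can recruit the machinery that lengthens the tail, while other mRNAs are deadenylated and lost. The RNA was selected with oligo(dT) beads, so a change in the amount of an mRNA and a change in its tail length cannot be told apart here. The 3' ends of the members are therefore shown before their values. The last 100 bases of the longest coding transcript of each member (GENCODE M21 annotation, GRCm38) were searched on the sense strand for the CPE letters TTTTAT and TTTTAAT. Matches were found in Bcl2l10 (1 TTTTAAT) and in Bcl2l11 (2 TTTTAT), which is 2 of 10 members or 20%. Of the 12544 tested coding genes 2417, or 19.3%, held a match, so the share in the family was that of genes at large. The windows below are 30 bases long, 5′ to 3′, as the DNA strand of the mRNA. In the first pair, from the only members with a match, the capitals mark the CPE. In the other three, the most abundant members without a match, they mark the AATAAA hexamer.
Bcl2l10: cttaatacatTTTTAATaacttcaaattct
Bcl2l11: tcttaatgaaTTTTATataaataaaacttg
Mcl1: tctgaagagaaAATAAAcctttttcccccc
Bcl2l1: gcagttcagtAATAAAtggtgtctgtgact
Bax: gggaggcgccAATAAAcctcaggtccactt
The CPE of Bcl2l10 begins 42 bases before the annotated 3' end and its hexamer 21 bases before it. In Bcl2l11 the CPE shown begins 33 bases before the end, the other one 51 bases and the hexamer 24 bases, so that none of the 3 matches in the family overlaps a hexamer. Of the other members, only Bid had no AATAAA or ATTAAA in the last 100 bases. With the last 150 bases searched, the members with a match were still 2 of 10, against 24.5% of tested coding genes. A match is a description of the annotated end. Which ends these oocytes used was not measured.

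The count tables held between 10306471 and 14999003 reads per library. The genes that mark an oocyte were read in every library. A list of 14 (zona pellucida genes, Gdf9, Bmp15, Nlrp5 and others) had no gene at 0 reads. It summed to 16917 to 19661 CPM (reads of a gene scaled to a common library size) at GV and 18108 to 21961 CPM at MII. Its median was 846 to 1000 CPM at GV and 493 to 614 CPM at MII. Of its genes, 4 rose and 8 fell in the native line, and 4 rose and 9 fell in the sex-converted line. The median log2 changes were -1.17 and -0.861, beside -0.307 and -0.345 over all tested genes. Figla was scarce at MII, with group means of 0.825 (native) and 1.07 CPM (sex-converted). A list of 18 granulosa and cumulus genes summed to 128 to 138 CPM at GV and 191 to 270 CPM at MII, with 2 to 7 of its genes at 0 reads in a library. Its defining gene Foxl2 had 0 reads in 6 of 8 libraries and 10 reads in native MII replicate 1, the library with the highest sum. A list of 10 stromal and theca genes summed to 1.11 to 2.09 CPM at GV and 2.19 to 6.46 CPM at MII. A list of 9 blood and endothelial genes summed to 61.2 to 92.7 CPM at GV and 197 to 282 CPM at MII; the group means of its member Pecam1 were 72.5 and 73.7 CPM at GV and 197 and 251 CPM at MII, and Hba-a1, Hbb-bt and Adgre1 had 0 reads. The sums of the 3 lists of other cell types were therefore higher at MII, as Bcl2l10 and Bcl2l11 were, and their part in those results was not tested. Their genes did not all move together: of 12 tested granulosa and cumulus genes 5 rose and 1 fell in each line. By native group means, those that rose were Vim (0.147 to 9.57 CPM), Gja1 (0.756 to 25.7), Kitl (4.2 to 22.9), Has2 (0.56 to 5.18) and Cyp19a1 (17.4 to 56.6). The one that fell was Fshr, with 7 to 24 reads in the GV libraries and 0 in all MII libraries. Esr2 (63.7 CPM), Nr5a2 (39.3 CPM) and Cyp19a1 had the highest native GV means of that list. In bulk pools, less RNA per oocyte and fewer oocytes of a kind cannot be told apart.

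Maturation moved the family in opposite directions. In both lines the mRNAs of Bcl2l10 and of Bcl2l11, the gene of the BH3-only activator BIM, rose about 7-fold and 16- to 18-fold, while those of Bax and Mcl1 fell. In the native line 2 of the 8 tested members rose and 2 fell at an adjusted p under 0.05 (edgeR, Benjamini-Hochberg over all tested genes), where 29.6% of all tested genes rose and 35.7% fell. In the sex-converted line 4 rose and 2 fell, against 29.3% and 36.2% of all tested genes. Most mRNAs changed between these stages, and the number of members called is near the share of genes at large. Scaled by library totals alone, 2 members rose and 3 fell in each line. Of all 14929 tested genes, 2488 then rose and 7614 fell in the native line, and 2372 and 7785 in the sex-converted line. Under that scaling Bcl2l10 rose 3.66-fold (native) and 3.48-fold (sex-converted) and Bcl2l11 8.64-fold and 9.56-fold. Mcl1 fell 3.39-fold and 4.78-fold and Bax 7.65-fold and 8.92-fold. The folds below use TMM factors, which lay between 1.33 and 1.43 for GV libraries and between 0.714 and 0.733 for MII libraries. The 4 calls of the native line had the same direction in the sex-converted line; Bid and Pmaip1 passed the test there alone, and their difference between the lines did not pass. The median log2 fold change of the 8 members was 0.876 (native) and 0.628 (sex-converted), beside -0.307 and -0.345 over all tested genes.

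**Figure D1:**
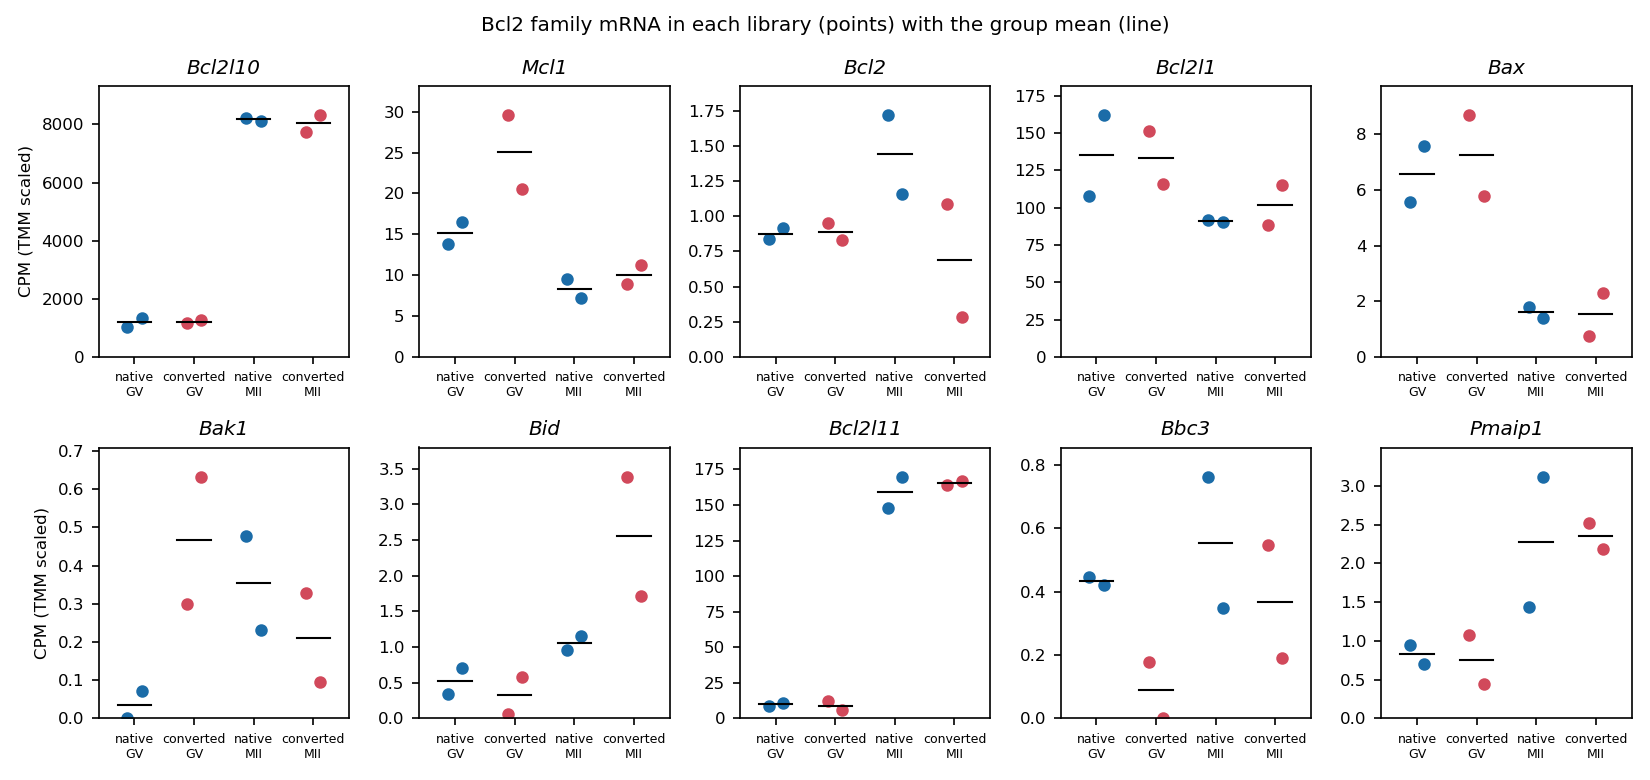
Level of each of the 10 Bcl2 family genes in CPM with TMM scaling (vertical axes, each from 0) in the 4 groups; points are libraries and lines are group means of 2. Bcl2l10 and Bcl2l11 are higher in all 4 MII libraries than in any GV library, and Bax and Mcl1 are lower.

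Bcl2l10 (ENSMUSG00000032191, chromosome 9, 75347758 to 75351632, plus strand) encodes a BCL2 family protein that acts at the meiotic spindle. What the protein does to cell death in these oocytes was not measured. The Bcl2l10 level in the GV libraries was 1022 and 1346 CPM in the native line and 1147 and 1265 CPM in the sex-converted line. In the MII libraries it was 8234 and 8109 CPM in the native line and 7745 and 8323 CPM in the sex-converted line. The stages did not overlap, and within each stage the 2 lines did. The group means rose from 1184 ± 229 to 8172 ± 88.3 CPM in the native line (SD, n = 2) and from 1206 ± 83.5 to 8034 ± 409 CPM in the sex-converted line (SD, n = 2). The log2 fold change was 2.79 (SE 0.16, edgeR adjusted p = 4.48e-07) in the native line, a 6.9-fold rise, and 2.74 (SE 0.16, edgeR adjusted p = 5.3e-07) in the sex-converted line, a 6.66-fold rise.

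These levels put Bcl2l10 among the most abundant mRNAs of the oocyte. It took 0.136% to 0.186% of all reads in the GV libraries and 0.567% to 0.608% in the MII libraries; the Wilson 95% intervals of these shares, which cover counting error only, reach from 0.134% for the lowest to 0.612% for the highest. Ranked by CPM per kilobase of exon among 21897 coding genes, it stood at 9, 9, 9 and 15 in the GV libraries, native replicate 1 being the library at 15, and at 3 in every MII library. Of the reads per kilobase of the whole family, Bcl2l10 held 95.02% to 96.61% at GV and 99.24% to 99.35% at MII. The other members together held less than 5% of the family's reads per kilobase in each library. These shares use the length of all exons. The longest coding transcript is shorter than that for Bcl2l1 (2568 against 4586 bases) and the same for Bcl2l10 (1220). By transcript length the share of Bcl2l10 is therefore smaller.

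Bcl2l1 (ENSMUSG00000007659, chromosome 2, 152780668 to 152831728, minus strand) encodes BCL-X, of which the long form is anti-apoptotic and the short form is not; the gene-level counts do not separate the forms. It was the second member by level. In GV libraries it measured 108 and 162 CPM in the native line and 151 and 116 CPM in the sex-converted line. In MII libraries the values were 91.6 and 90.1 CPM in the native line and 88.1 and 115 CPM in the sex-converted line. The MII values lay below all GV values except in sex-converted MII replicate 2 (115 CPM), which lay above native GV replicate 1 (108 CPM). Within each line the stages did not overlap, though in the sex-converted line the nearest values were 116 and 115 CPM. The log2 fold change was -0.57 (95% interval -1.11 to -0.03) in the native line with an edgeR adjusted p of 0.0584, and -0.39 (95% interval -0.92 to 0.15) in the sex-converted line with an edgeR adjusted p of 0.177, so neither passed the test. The call depended on the setting: scaled by library totals alone it was lower in both lines (log2 -1.49 and -1.33, edgeR adjusted p = 0.000477 and 0.000982), and in the native line it was also lower with no filter on low counts, with genes kept at a mean of 50 reads, and without native GV replicate 1 (-0.663, -0.647 and -0.794).

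Mcl1 (ENSMUSG00000038612, chromosome 3, 95658788 to 95663176, plus strand) encodes a short-lived anti-apoptotic protein. Its level at GV was 13.8 and 16.5 CPM in the native line and 29.6 and 20.5 CPM in the sex-converted line. At MII it was 9.55 and 7.17 CPM in the native line and 8.87 and 11.2 CPM in the sex-converted line. The stages did not overlap, and at GV both sex-converted libraries lay above both native ones. Mcl1 fell 2.49-fold in the sex-converted line (log2 -1.32, SE 0.308, edgeR adjusted p = 0.00305) and 1.8-fold in the native line (log2 -0.848, SE 0.311, edgeR adjusted p = 0.0322). The native call was lost without native GV replicate 2 (-0.711, adjusted p = 0.116) and without native MII replicate 2 (-0.66, adjusted p = 0.166); it was also lost when only the 4 native libraries were fitted (-0.849, adjusted p = 0.0543).

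Bcl2 (ENSMUSG00000057329, chromosome 1, 106538178 to 106714274, minus strand), the founding anti-apoptotic member, was near the floor of these libraries with 3 to 18 reads in each. Its level was 0.835 and 0.915 CPM (native) and 0.954 and 0.828 CPM (sex-converted) at GV, and 1.72 and 1.16 CPM (native) and 1.09 and 0.285 CPM (sex-converted) at MII. No change passed the test: the 95% interval of the log2 fold change ran from -0.85 to 2.29 in the native line and from -2.04 to 1.27 in the sex-converted line.

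Bax (ENSMUSG00000003873, chromosome 7, 45461697 to 45466898, minus strand) encodes the pore-forming effector that moves from the cytosol to mitochondria. It measured 5.57 and 7.6 CPM (native) and 8.7 and 5.8 CPM (sex-converted) at GV. At MII it measured 1.81 and 1.39 CPM (native) and 0.766 and 2.28 CPM (sex-converted), from 7 to 24 reads a library. Every MII value lay below every GV value. Bax fell 4.06-fold in the native line (log2 -2.02, SE 0.512, edgeR adjusted p = 0.00487) and 4.66-fold in the sex-converted line (log2 -2.22, SE 0.511, edgeR adjusted p = 0.00273). The sex-converted change was -3.22 when the higher library of its MII pair, replicate 2, was left out. Bak1 (ENSMUSG00000057789, chromosome 17, 27019810 to 27029009, minus strand), the effector that resides on mitochondria, had 5, 13, 0 and 1 reads in the GV libraries (sex-converted, then native) and 3, 1, 5 and 2 reads in the MII libraries. Native GV replicate 1 had no read, which allows up to 0.167 CPM. Bak1 was not tested.

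Bcl2l11 (ENSMUSG00000027381, chromosome 2, 128126038 to 128162547, plus strand) encodes BIM, which binds all anti-apoptotic members and activates BAX and BAK. It gave the largest change of the 8 tested members. At GV it measured 8.85 and 10.7 CPM in the native line and 12 and 5.99 CPM in the sex-converted line. At MII it measured 148 and 170 CPM in the native line and 164 and 167 CPM in the sex-converted line. The group means went from 9.77 ± 1.3 to 159 ± 15.5 CPM in the native line (SD, n = 2) and from 9.02 ± 4.28 to 165 ± 1.94 CPM in the sex-converted line (SD, n = 2). The stages were far apart and the lines overlapped at each stage. The log2 fold change was 4.02 (SE 0.317, edgeR adjusted p = 1.68e-06), or 16.2-fold, in the native line. It was 4.2 (SE 0.32, edgeR adjusted p = 1.46e-06), or 18.4-fold, in the sex-converted line, and 4.8 there without sex-converted GV replicate 1.

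The remaining BH3-only genes were scarce. Pmaip1 (ENSMUSG00000024521) encodes NOXA, which binds chiefly MCL1. It measured 0.947 and 0.704 CPM (native) and 1.07 and 0.439 CPM (sex-converted) at GV, and 1.43 and 3.12 CPM (native) and 2.52 and 2.19 CPM (sex-converted) at MII, from 9 to 27 reads a library. All 4 MII values lay above all 4 GV values. The log2 fold change was 1.64 (SE 0.651, edgeR adjusted p = 0.0439) in the sex-converted line and 1.44 (SE 0.653, edgeR adjusted p = 0.0735) in the native line. The sex-converted call did not hold without sex-converted GV replicate 2 (1.16, adjusted p = 0.209), without MII replicate 1 (1.54, adjusted p = 0.129), without MII replicate 2 (1.74, adjusted p = 0.0939), in DESeq2 (1.67, adjusted p = 0.0766) or by library totals (0.706, adjusted p = 0.36), and without sex-converted GV replicate 1 the value was 2.41. In the native line Pmaip1 passed without native MII replicate 1 (1.9, adjusted p = 0.0421).

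Bid (ENSMUSG00000004446, chromosome 6, 120891930 to 120916853, minus strand) encodes the BH3-only protein that caspase-8 cuts and activates. It had 6 and 10 reads (native) and 1 and 12 reads (sex-converted) at GV, and 10 and 10 reads (native) and 31 and 18 reads (sex-converted) at MII. Its level went from 0.519 ± 0.261 to 1.06 ± 0.143 CPM in the native line (SD, n = 2) and from 0.322 ± 0.371 to 2.55 ± 1.19 CPM in the sex-converted line (SD, n = 2). The log2 fold change was 2.89 (SE 0.876, edgeR adjusted p = 0.0131) in the sex-converted line and 1.03 (SE 0.89, edgeR adjusted p = 0.325) in the native line. The sex-converted call was lost without GV replicate 1 (2.12, adjusted p = 0.0584), without MII replicate 1 (2.33, adjusted p = 0.0855) and by library totals (1.98, adjusted p = 0.0655), and the value was 5.23 without GV replicate 2. Of the 3550 exon bases of Bid, 628 overlap exons of Bcl2l13 on the opposite strand. Bcl2l13 had 18068 reads over all libraries and rose in both lines (log2 2.14 and 2.02). No label says whether reads were counted by strand, so the Bid reads are uncertain. Exons of Bax overlap another gene on the same strand (192 of 1576 bases). Exons of Bcl2 (558 of 9157 bases) and Bak1 (437 and 177 of 2407) overlap genes on the opposite strand. Those other genes had at most 1 read over all libraries. Whether the overlaps cost these members reads was not tested. Bbc3 (ENSMUSG00000002083, chromosome 7, 16308393 to 16318205, plus strand) encodes PUMA, the main p53 target of the group. It had 3, 0, 8 and 6 reads in the GV libraries (sex-converted, then native) and 5, 2, 8 and 3 reads in the MII libraries. Sex-converted GV replicate 2 had no read, which allows up to 0.146 CPM, and Bbc3 was not tested.

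**Figure D2:**
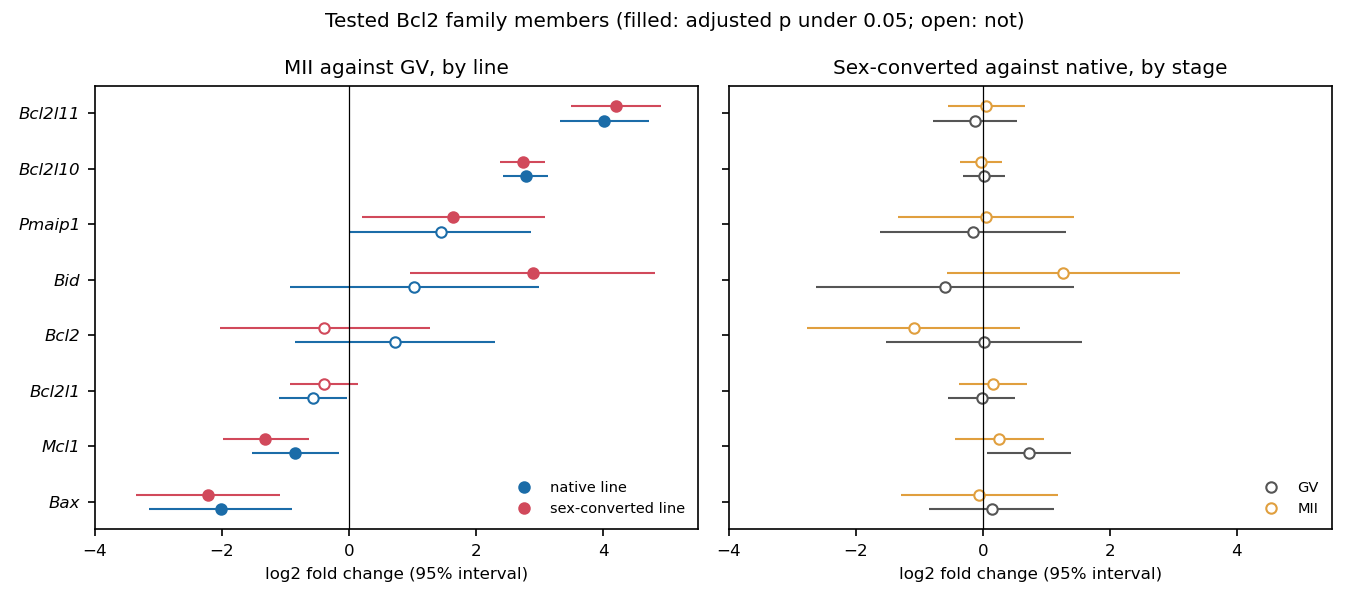
Log2 fold change with its 95% interval (horizontal axis) for the 8 tested members, MII against GV within each line (left) and the sex-converted against the native line at each stage (right). Filled points passed an adjusted p of 0.05; Bcl2l11, Bcl2l10, Mcl1 and Bax passed in both lines on the left and no member passed on the right.

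Compared per length, the order of the family changed between the stages. At GV, over the 4 libraries, Bcl2l10 stood at a mean of 980 CPM per kilobase (838 to 1104), Bcl2l1 at 29.3 (23.5 to 35.3), Mcl1 at 5.88 (4.02 to 8.67), Bax at 4.39 (3.53 to 5.52) and Bcl2l11 at 1.17 (0.746 to 1.5). Mcl1 and Bax overlapped in range, and the other neighbours in this order did not. Pmaip1 (0.289), Bbc3 (0.123), Bid (0.118), Bak1 (0.104) and Bcl2 (0.0964) followed, each overlapping the next, while Pmaip1 did not overlap Bcl2l11. At MII, Bcl2l10 stood at 6642 CPM per kilobase (6349 to 6822). Bcl2l1 at 21 (19.2 to 25.1) and Bcl2l11 at 20.2 (18.4 to 21.1) overlapped, so the BH3-only gene had come level with the anti-apoptotic gene Bcl2l1. Mcl1 followed at 2.69 (2.1 to 3.28) and Bax at 0.992 (0.486 to 1.45). From Bax on, through Pmaip1 (0.848), Bid (0.508), Bbc3 (0.218), Bak1 (0.118) and Bcl2 (0.116), each gene overlapped the next. Among the 21897 coding genes, Bcl2l11 stood between ranks 8305 and 9506 in the GV libraries and between 2286 and 2538 in the MII libraries. Bcl2l1 stood between 1152 and 1821 at GV and between 2094 and 2472 at MII.

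**Figure D3:**
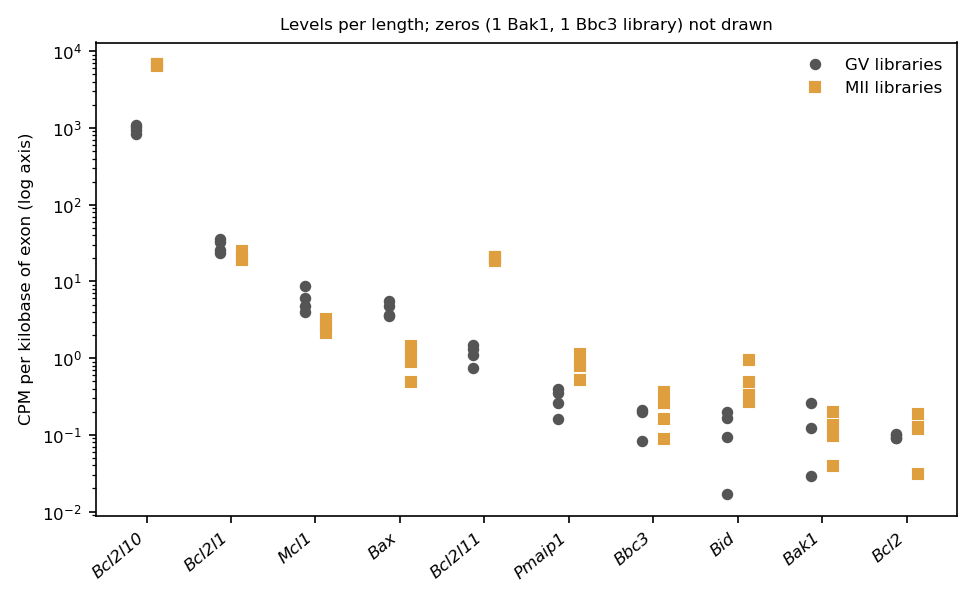
CPM per kilobase of exon (log axis) for the 10 members in the 4 GV and the 4 MII libraries, each point a library. Bcl2l10 lies above all other members at both stages, and Bcl2l11 reaches the level of Bcl2l1 in the MII libraries; the libraries with 0 reads of Bak1 and of Bbc3 are not drawn.

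A ratio of members within a library does not depend on how libraries are scaled to each other. The ratio of Bcl2l11 to Bcl2l1, activator to anti-apoptotic mRNA per kilobase, was 0.0468 and 0.0377 (native) and 0.0456 and 0.0296 (sex-converted) in the GV libraries. In the MII libraries it was 0.921 and 1.07 (native) and 1.06 and 0.826 (sex-converted). With the length of the longest coding transcript in place of all exons, the MII ratios were 0.737 to 0.96 and the GV ratios 0.0264 to 0.0418. The ratio of Bcl2l11 to Mcl1 was 0.124 to 0.277 at GV and 6.32 to 10.1 at MII.

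Other pairs were compared in the same way. Bcl2l1 to Bax, anti-apoptotic to effector mRNA, was 5.95 to 7.33 at GV and 17.3 to 39.5 at MII, with the highest value in sex-converted MII replicate 1, which had 7 reads of Bax. Bcl2l10 to Bcl2l1 was 28.6 to 41.1 at GV and 271 to 338 at MII. Bcl2l10 to Bcl2l11 was 627 to 1390 at GV and 311 to 367 at MII. Although both rose, Bcl2l10 mRNA was thus at least 311 times as abundant per kilobase of all exons in every library. The stages did not overlap in these 5 ratios. Bcl2l1 to Mcl1, the ratio of 2 anti-apoptotic mRNAs, did overlap, at 3.79 to 7.34 at GV and 7.15 to 9.36 at MII. The longest coding transcript of Bcl2l11 has 5036 bases against 8029 for all exons, and that of Bcl2l1 2568 against 4586. Bcl2l10 has 1220 bases by both, so by transcript length its ratios to these genes are smaller than those given. Ratios of mRNA say nothing of protein.

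**Figure D4:**
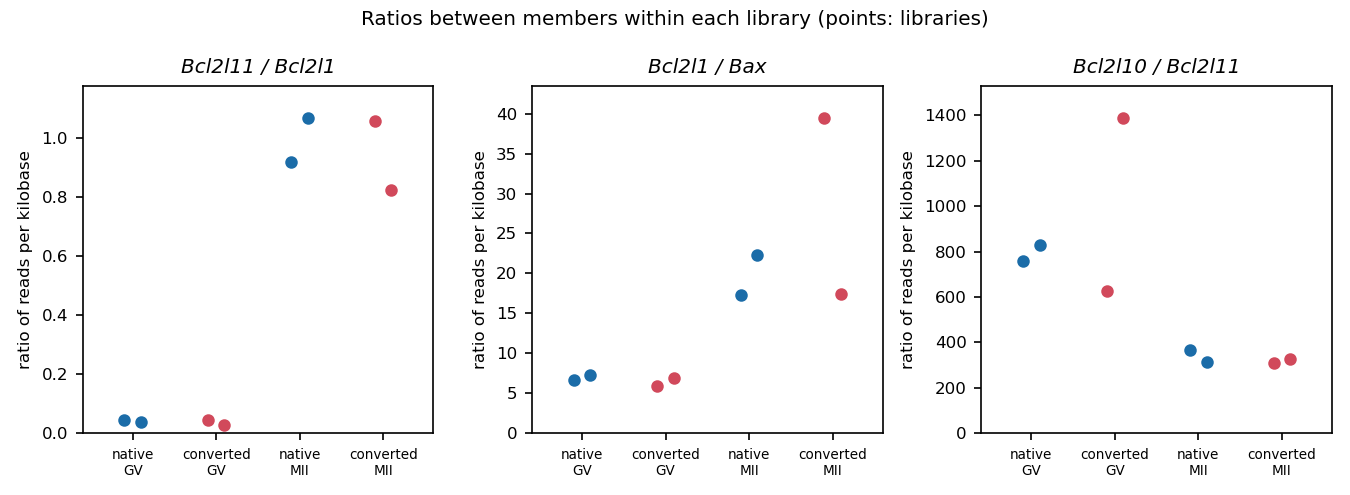
Ratios of reads per kilobase between members (vertical axes from 0), each point a library, for Bcl2l11 to Bcl2l1, Bcl2l1 to Bax and Bcl2l10 to Bcl2l11 in the 4 groups. The first 2 ratios are higher in every MII library than in any GV library, and the last is lower.

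Whether oocytes of the sex-converted line differ from those of the native line was asked at each stage. None of the 8 tested members passed at GV or at MII (edgeR, adjusted p under 0.05), nor in DESeq2, where 0.0134% of all tested genes passed at each stage in edgeR. At an unadjusted p under 0.05 there was 1 member at GV and there were 0 at MII, where 549 genes of the whole table were at that level. That member was Mcl1, higher in the sex-converted GV oocytes by 0.73 on the log2 scale (95% interval 0.0722 to 1.39, unadjusted p = 0.0327, adjusted p = 1), with 319 genes of the whole table at that unadjusted level. At MII its difference was 0.26 (95% interval -0.44 to 0.96).

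The intervals show how large a difference between the lines these data leave room for. For Bcl2l10 it was 0.03 (95% interval -0.30 to 0.36) at GV and -0.02 (-0.36 to 0.31) at MII, on the log2 scale. For Bcl2l11 it was -0.12 (-0.78 to 0.54) at GV and 0.06 (-0.55 to 0.67) at MII. For Bcl2l1 it was -0.02 (-0.55 to 0.51) and 0.16 (-0.37 to 0.70). Bax had wider intervals, 0.14 (-0.85 to 1.13) at GV and -0.06 (-1.29 to 1.18) at MII, and those of Bcl2, Bid and Pmaip1 were wider still at both stages; they rest on few reads.

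The change from GV to MII was compared between the lines by the interaction term. No member passed in edgeR or in DESeq2, where 0% of all tested genes passed in edgeR. At an unadjusted p under 0.05 there were 0 members and 329 of the 14929 genes. The difference in log2 fold change, sex-converted minus native, was -0.05 for Bcl2l10 (95% interval -0.52 to 0.42) and -0.47 for Mcl1 (-1.43 to 0.49). For Bid, called in the sex-converted line alone, it was 1.86 (95% interval -0.88 to 4.60, unadjusted p = 0.163).

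Genes whose profile over the 8 libraries was nearest to that of Bcl2l10 and of Mcl1 were found among 7683 genes by the root mean square difference of centred log2(CPM + 0.5) values. Nearest to Bcl2l10 were Anp32e (0.0434), Slc35a1 (0.0578), Angel2 (0.0656), Abhd17c (0.0703) and Phtf2 (0.073). Nearest to Mcl1, at larger distances, were Adipor2 (0.196), Krt79 (0.212), Dido1 (0.213), Map3k11 (0.219) and Prpf19 (0.223). Bcl2l10 thus had closer neighbours than Mcl1 did, but it had 18357 to 87513 reads a library and Mcl1 62 to 497. The distance includes counting error, so depth cannot be told apart from a trait of the genes.

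The 2 members with a CPE near the 3' end were the 2 called higher in both lines, and Mcl1 and Bax, called lower in both, had none. Bid and Pmaip1, called higher in the sex-converted line alone (log2 2.89 and 1.64), had none either. Nor had Bcl2l1 and Bcl2, which were called in neither line. Over all tested coding genes, 53% of the 2417 with a match and 26.5% of the 10127 without one were called higher in the native line. The shares called lower were 19.5% and 40.9%. In the sex-converted line the shares called higher were 52.6% and 26.1%, and those called lower 20% and 41.6%. The median log2 fold change of genes with a match was 1.02 (native) and 1.07 (sex-converted), and that of genes without one -0.589 and -0.634. These are descriptions of the annotated ends beside the fold changes, and the members are 2 genes among the 2417.

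Genes that work with the family were read from 7 lists holding 93 genes, chosen with earlier results of these data known. Their counts and shares therefore describe the lists and test nothing about them. Beside the counts below, 29.6% of all tested genes rose and 35.7% fell in the native line. In the sex-converted line these shares were 29.3% and 36.2%. The medians over all tested genes were -0.307 (native) and -0.345 (sex-converted). The other Bcl2-related genes numbered 17, of which 11 were tested. Among these, 5 rose and 3 fell in the native line (median log2 0.721), and in the sex-converted line 4 rose and 3 fell (median 0.767). Bcl2l2, which encodes the anti-apoptotic BCL-W, rose from 2.08 to 14.5 CPM in the native line (log2 2.82, and 3.5 without native GV replicate 2), and the mitophagy receptor gene Bnip3 by 2.22. Its relative Bnip3l fell from 150 to 26.8 CPM (log2 -2.48) and Bnip1, which encodes a vesicle-fusion protein with a BH3 motif, from 37.2 to 2.35 CPM (log2 -3.93, and -5.73 or -3.21 without native MII replicate 1 or 2).

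Downstream of the mitochondria, 14 of 15 apoptosome and caspase genes were tested. Of these, 4 rose and 4 fell in the native line (median log2 0.159), and in the sex-converted line 2 rose and 5 fell (median -0.218). Apaf1, the scaffold of the apoptosome, rose from 4.16 to 27.5 CPM in the native line (log2 2.73), and Casp9, the caspase it activates, from 10.6 to 43.2 CPM (log2 2.04). Casp8, the initiator caspase of death receptors, fell from 16.7 to 2.93 CPM (log2 -2.52), and Aifm1 fell too (log2 -0.984). Cytochrome c (Cycs) measured 10.9 CPM at GV and 12 CPM at MII in the native line and was not called. Htra2, a mitochondrial protease gene, passed narrowly in the native line (log2 1.08, edgeR adjusted p = 0.0393). Its call was lost without native GV replicate 1 (0.595), native MII replicate 1 (0.98) or replicate 2 (1.16), and without either sex-converted MII library (adjusted p = 0.0534 and 0.0538); it was 1.88 without native GV replicate 2, and 0.153 by library totals.

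Among 10 inhibitor of apoptosis genes 8 were tested, and 4 rose and 3 fell in each line (medians 0.0738 and 0.217). In the native line Xiap, which inhibits caspases directly, rose from 10.5 to 61.9 CPM (log2 2.56), and the giant ubiquitin ligase gene Birc6 from 15.4 to 115 CPM (log2 2.9). Birc2 rose by 2.34 on the same scale. Birc5, whose protein survivin serves the chromosomal passenger complex, fell from 485 to 127 CPM (log2 -1.93) and Naip1 fell too (log2 -1.96). Of 12 death receptor genes 6 were tested: 2 rose and 2 fell in the native line (median -1.19), 1 rose and 3 fell in the sex-converted line (median -0.668). The adaptor gene Fadd fell from 15.8 to 0.958 CPM in the native line (log2 -4, and -4.75 without native MII replicate 1) as did the kinase gene Ripk1 (log2 -1.67). Cflar, which encodes the caspase-8 inhibitor c-FLIP, rose from 6.05 to 14.2 CPM (log2 1.24, and 0.321 and not called by library totals).

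All 16 regulators of BH3-only genes were tested; 10 rose and 5 fell in the native line (median log2 1.29), and 9 rose and 2 fell in the sex-converted line (median 1.15). Mdm2, the ubiquitin ligase of p53, rose from 154 to 897 CPM in the native line (log2 2.55). Mapk8, the kinase JNK1, rose from 201 to 795 CPM (log2 1.98), and E2f1 by 1.75. Ddit3, the stress factor CHOP, fell from 19.9 to 1.99 CPM (log2 -3.28, and -4.41 without native MII replicate 1), and Trp73 (log2 -1.34) and the checkpoint kinase gene Atr (log2 -1.18) fell as well.

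All 9 genes of MCL1 protein turnover were tested, and 6 rose and 2 fell in each line (medians 1.68 and 1.77). The native line had Cdc20, an activator of the anaphase-promoting complex, at 105 CPM at GV and 491 CPM at MII (log2 2.23). Fbxw7, which encodes a substrate receptor for MCL1, rose from 16.6 to 67.7 CPM (log2 2.02), and Gsk3a, a kinase gene, by 2.33. The ligase genes Btrc, from 284 to 32.8 CPM (log2 -3.11), and Huwe1, from 139 to 55.6 CPM (log2 -1.32), fell. The ubiquitin ligase genes of the list thus moved both ways.

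Of 14 genes of mitochondrial membrane partners 13 were tested. Here 5 rose and 4 fell in the native line (median log2 -0.288), and in the sex-converted line 5 rose and 3 fell (median 0.155). The channel genes moved apart: Vdac1 rose from 49.1 to 186 CPM in the native line (log2 1.92) and Vdac3 fell from 83.8 to 9.16 CPM (log2 -3.19). Hk2, a hexokinase gene whose product docks on VDAC, rose from 0.884 to 13.3 CPM (log2 3.93, and 4.72 without native GV replicate 2), and Ghitm by 1.67. Bag1, a gene for a BCL2-binding co-chaperone, fell from 27 to 2.79 CPM (log2 -3.25), and the fusion gene Mfn2 fell too (log2 -1.15), a call lost without native GV replicate 2 (-0.748, adjusted p = 0.0582). Over the 7 lists 77 genes were tested. Of these, 36 rose (46.8%, beside 29.6% of all tested genes) and 23 fell (29.9%, beside 35.7%) in the native line. In the sex-converted line 31 rose (40.3%, beside 29.3%) and 21 fell (27.3%, beside 36.2%). By library totals alone 25 rose and 32 fell in the native line, where 2488 of all 14929 tested genes rose and 7614 fell. In the sex-converted line 22 then rose and 34 fell, where 2372 of all tested genes rose and 7785 fell. No gene of any list was called between the lines at either stage or in the interaction.

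**Figure D5:**
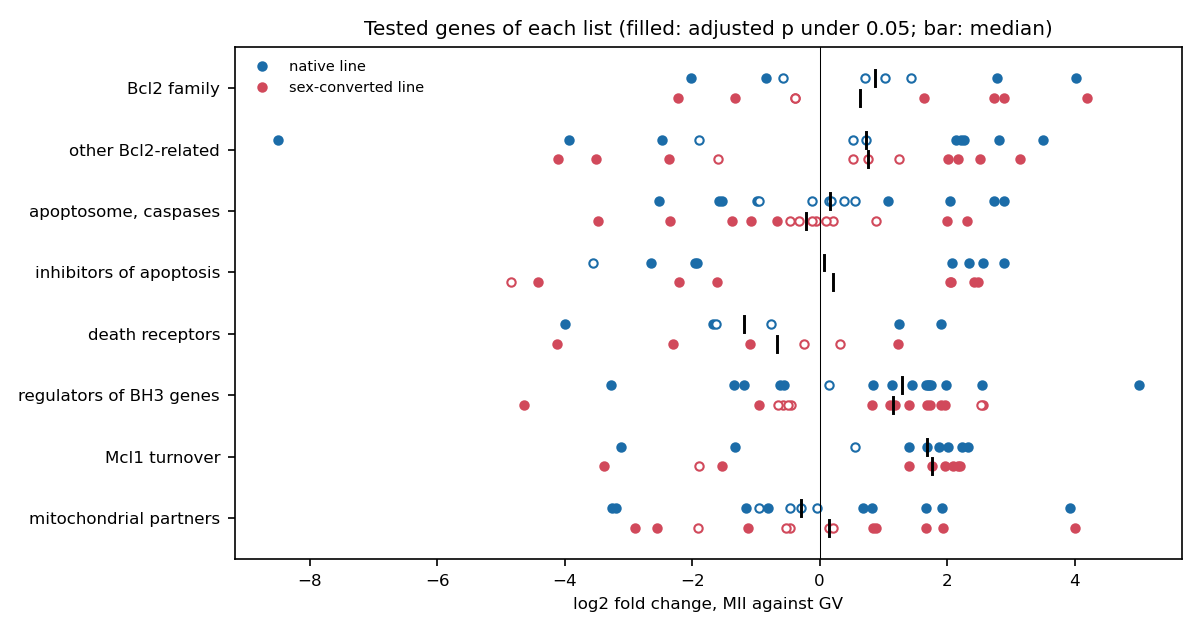
Log2 fold change from GV to MII (horizontal axis) of each tested gene of the Bcl2 family (top row) and of the 7 lists, by line. Filled points passed an adjusted p of 0.05 and bars are the medians of each row. Each list holds genes on both sides of 0; the leftmost point is Bcl2l12, which had 0 reads in both native MII libraries, so that its fitted value is no bound.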

How the data were processed

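Poly(A) RNA of pooled oocytes was made into directional libraries and sequenced as single reads, per the labels' protocols. The deposited values are raw read counts per gene, which the authors made with Trimmomatic 0.38, HISAT2 2.1.0 and featureCounts 2.0.0 on mm10, with DESeq2 1.30.1 also named, per the submitters' processing notes. The annotation and the strand setting of the counting are named neither there nor in the labels (not given in the sources used here). Of 55385 genes, 55144 matched GENCODE M21, which gave names, coordinates, exon lengths and 3' ends.

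All 8 libraries were fitted together in edgeR 4.0.16 (R 4.3.3) by the quasi-likelihood test, two-sided, with TMM factors, filterByExpr and a coefficient per group; the common biological coefficient of variation was 0.243. Adjusted p-values are Benjamini-Hochberg over 14929 genes, with a call under 0.05. Each SE was obtained by dividing the size of the log2 change by the root of its F. CPM (counts scaled to library size) use TMM factors; CPM per kilobase uses all exons of a gene. A library's 0 reads allow up to 3 reads. The fit was also run on simulated counts in which few genes changed, as many up as down. Most genes changed between the real stages, so that run does not speak to the scaling of the stages.

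Alternatives were RLE factors, library totals, DESeq2 1.42.0, no filter, a mean of 50 reads, only the 4 libraries compared, a replicate block and leaving out each library. All members are named; from each list, up to 3 called genes per direction with the largest native change at 10 CPM or more; and the 5 nearest profiles. A list gene that this rule names is not reported here. The members and lists were chosen with earlier results of these data known. A search of the proteins for the BH3 core was not run.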

Additional observations from a re-analysis of the deposited data

How the results depend on the processing

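The rises of Bcl2l10 and Bcl2l11 and the fall of Bax passed in both lines, and that of Mcl1 in the sex-converted line, under every alternative run. Leaving out each library in turn gave, on the log2 scale, 2.64 to 3.01 and 2.68 to 2.85 for Bcl2l10 (native, sex-converted), 3.92 to 4.17 and 3.82 to 4.8 for Bcl2l11, -2.24 to -1.78 and -3.22 to -1.66 for Bax, and -1.07 to -0.66 and -1.52 to -1.01 for Mcl1. Scaling by library totals moved the median of all genes by -0.913 (native) and -0.935 (sex-converted); calls over all genes went from 4414 higher and 5327 lower to 2488 and 7614 in the native line, and from 4374 and 5408 to 2372 and 7785 in the sex-converted line. Under that scaling Bcl2l10 changed by 1.87 and 1.8 and Bcl2l11 by 3.11 and 3.26 (3.09 and 3.08, and 4.33 and 4.53, above the median of all genes), and Mcl1 lay below that median (-0.547 and -0.98), as did Bax (-1.72 and -1.88). Under it the list genes called lower in the sex-converted line were 34, not 21, and Bcl2l10 stood at 1381 (sex-converted GV), 1317 (native GV), 4816 (sex-converted MII) and 4820 (native MII) CPM per kilobase, against 989, 971, 6585 and 6698. Native members called lower were 1 with only the 4 native libraries or with the replicate block, and 1 to 3 without a library. Sex-converted members called higher were 2 with library totals or a mean of 50 reads, and 2 to 4 without a library.

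Values that changed sign were all below the threshold on both sides. By library totals these were Bcl2 in the native line (-0.185), Htra2 in the sex-converted line (-0.0547) and Bcl2l1 between lines at GV (0.0282); with no filter, Bcl2l10 between lines at MII (0.00826). Leaving out each library gave ranges across 0 at GV between lines for Bcl2l10 (-0.139 to 0.226), Bcl2 (-0.0632 to 0.118), Bcl2l1 (-0.265 to 0.289), Bax (-0.165 to 0.4), Bid (-2.9 to 0.21), Bcl2l11 (-0.688 to 0.297) and Pmaip1 (-0.895 to 0.357). At MII they were Bcl2l10 (-0.0773 to 0.0265), Bcl2l1 (-0.044 to 0.343), Bax (-1.06 to 0.501), Bcl2l11 (-0.0377 to 0.162) and Pmaip1 (-0.409 to 0.711). In the interaction they were Bcl2l10 (-0.244 to 0.122), Bcl2l1 (-0.117 to 0.437), Bax (-1.2 to 0.362), Bcl2l11 (-0.235 to 0.75) and Pmaip1 (-0.306 to 0.946), and for Bcl2 in the sex-converted line -1.61 to 0.297. The cause was not tested.

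Replicate numbers do not pair the samples by the labels. The correlation of deviations over 7683 genes between samples with the same number was -0.0398 for native GV and MII, 0.12 for sex-converted GV and MII, -0.747 for the lines at GV and 0.282 at MII. The replicate block left Mcl1 in the native line at -0.854 (adjusted p = 0.0541) and Pmaip1 in the sex-converted line at 1.73 (adjusted p = 0.0636), both not called, and called no member between lines. A crossed block at GV, chosen after seeing the data, called 2 genes higher and 1 lower over all genes and no member. At an unadjusted edgeR p under 0.05 that block had 822 genes, against 319 in the main fit. The main comparison of the lines at GV, with its intervals, takes no account of the negative correlation. Depth limits Bcl2, Bid, Pmaip1, Bak1 and Bbc3, which had at most 31 reads in a library.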

Other observations

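Members of the wider Bcl2 group that the rule for named genes did not reach are given here as values, chosen after they were seen. Bok, a relative of Bax and Bak1, measured 0.196 CPM at GV and 2.24 CPM at MII in the native line and rose in both lines (log2 3.51 and 3.15, edgeR adjusted p = 0.0197 and 0.038), from few reads. The BH3-only gene Bik went from 11.6 ± 10.1 CPM at GV to 18.9 ± 3.72 CPM at MII in native oocytes (SD, n = 2), a difference that was not called. Bad measured 1.76 CPM at GV and 0.45 CPM at MII there and was not called (log2 -1.89, edgeR adjusted p = 0.115). Bcl2a1a, Bcl2a1b and Bcl2l14 had 0 reads in all 8 libraries. Trp53 rose from 21.4 to 69.6 CPM in the native line (log2 1.7, edgeR adjusted p = 0.000111), and Usp9x, whose product removes ubiquitin from MCL1, from 423 to 1354 CPM (log2 1.68, edgeR adjusted p = 1.65e-05).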
